A study of Mus musculus with 4 samples.

Results

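The genes described here are 8 readers of DNA methylation and members of the KRAB repressor complex: Mbd1, Mbd2, Mbd3, Mbd4, Zbtb33, Zfp57, Trim28 and Setdb1. They were chosen by name, and all 8 have a row among the 23235 gene symbols of the deposited table. RNA depleted of rRNA was sequenced from 4 mouse cultures, 1 library each, as part of a study of CpG islands inside genes. Embryonic stem (ES) cells on day 0 were wild type on the J1 background (WT_ES) or carried a double knockout of Dnmt3a and Dnmt3b (DKO_ES), whose enzymes set new DNA methylation. Each line was also differentiated for 4 days as embryoid bodies and for 2 days with retinoic acid, and the day 6 cells were labelled neural progenitors (WT_NP and DKO_NP). All 4 are of strain 129S4/SvJae, and ES cells were grown in serum with leukemia inhibitory factor, on feeder cells in earlier passages only. The labels do not say how many knockout clones or separate cultures there were. With 1 library per group no difference below has a replicate check, and no test was run. The 4 comparisons share libraries, each library entering 2 of them, so their values are not independent of each other.

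The values are FPKM, read numbers divided by transcript length and by all mapped reads, so levels may be compared between genes per unit of length. Steps in the low values gave approximate denominators of 13700000, 36000000, 14900000 and 24900000 reads for WT_ES, WT_NP, DKO_ES and DKO_NP. Folds between libraries were taken after median scaling, which divides each library by its typical ratio to the others, and each carries a 95% exact (Clopper-Pearson) interval from approximate read numbers. These intervals cover counting error only. The targets were lower in both knockouts, with Dnmt3a at 35.3 (WT_ES), 12.3 (DKO_ES), 17.2 (WT_NP) and 4.14 FPKM (DKO_NP). In the same order the FPKM of Dnmt3b was 140.3, 13.9, 9.98 and 5.22. The summed FPKM of 7 ES cell markers was 6553 (WT_ES), 7505 (DKO_ES), 95.5 (WT_NP) and 405 (DKO_NP). That of 7 neural progenitor markers was 29.2, 34.9, 47.4 and 198 in the same order, so the neural label rested on higher levels in DKO_NP than in WT_NP. Dppa5a gave most of each ES cell sum. Klf4 was lower in DKO_ES than in WT_ES, at 33.8 against 93.9 FPKM, while 4 of the 7 ES cell markers were higher after median scaling.

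Methylated CpG sites act largely through proteins that recognise them. MBD1, MBD2 and MBD4 carry a methyl-CpG-binding domain, and MBD3 carries a related domain that binds methylated DNA poorly. MBD2 and MBD3 are alternative subunits of the NuRD complex, which removes acetyl groups from histones and slides nucleosomes. MBD4 is a DNA glycosylase that removes thymine left when methylated cytosine is deaminated, and Kaiso, the product of Zbtb33, reads methylated DNA through zinc fingers. KRAB zinc finger proteins work differently: each binds its own DNA sequence and recruits TRIM28 (also called KAP1), which brings in SETDB1, the enzyme that trimethylates lysine 9 of histone H3. ZFP57 is the KRAB zinc finger protein that protects the methylation of imprinting control regions in mouse embryos and ES cells.

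CpG content at the start sites separated Zfp57 from the other members that have a RefSeq promoter entry (build GRCm38.p6). A window of 300 bases, 250 before and 50 after the start, was read for 6 of the 8 genes. The 3 annotated starts of Zfp57 held 4, 6 and 9 CpG dinucleotides, against a median of 7 and quartiles of 3 and 20 over 32851 promoters. Setdb1 held 15, Mbd3 22, Trim28 23, Mbd4 25 and Zbtb33 34, so these 5 windows lay above the median. The sequences shown are the 250 bases before the start of Zfp57 that has the most CpG sites (chr17:37002275-37002524, plus strand) and of Trim28 (chr7:13023902-13024151, plus strand), 2 partners in one complex with unlike starts. They are written 5′ to 3′ with each CpG in capitals, 7 in Zfp57 and 17 in Trim28.
Zfp57: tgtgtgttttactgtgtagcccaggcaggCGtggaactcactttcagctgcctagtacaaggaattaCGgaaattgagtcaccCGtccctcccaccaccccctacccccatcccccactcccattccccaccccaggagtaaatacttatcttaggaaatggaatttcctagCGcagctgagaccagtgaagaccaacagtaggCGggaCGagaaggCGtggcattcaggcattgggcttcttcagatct
Trim28: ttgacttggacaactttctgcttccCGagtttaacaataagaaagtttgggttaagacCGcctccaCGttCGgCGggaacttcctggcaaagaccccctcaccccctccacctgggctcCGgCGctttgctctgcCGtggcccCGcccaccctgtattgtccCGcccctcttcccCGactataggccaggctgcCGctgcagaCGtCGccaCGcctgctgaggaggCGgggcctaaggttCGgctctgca
The hexamer TGCCGC, recognised by ZFP57 when methylated, was searched on both strands and occurred once in the 300-base windows of Trim28 and Zbtb33. It is in 11.6% of all promoters. The Kaiso site TCCTGCNA occurred once, in Mbd3, and is in 4.96% of all promoters. A match describes the letters only, and no methylation was measured here. The table does not say which start of Zfp57 was used in these cells.

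**Figure D1:**
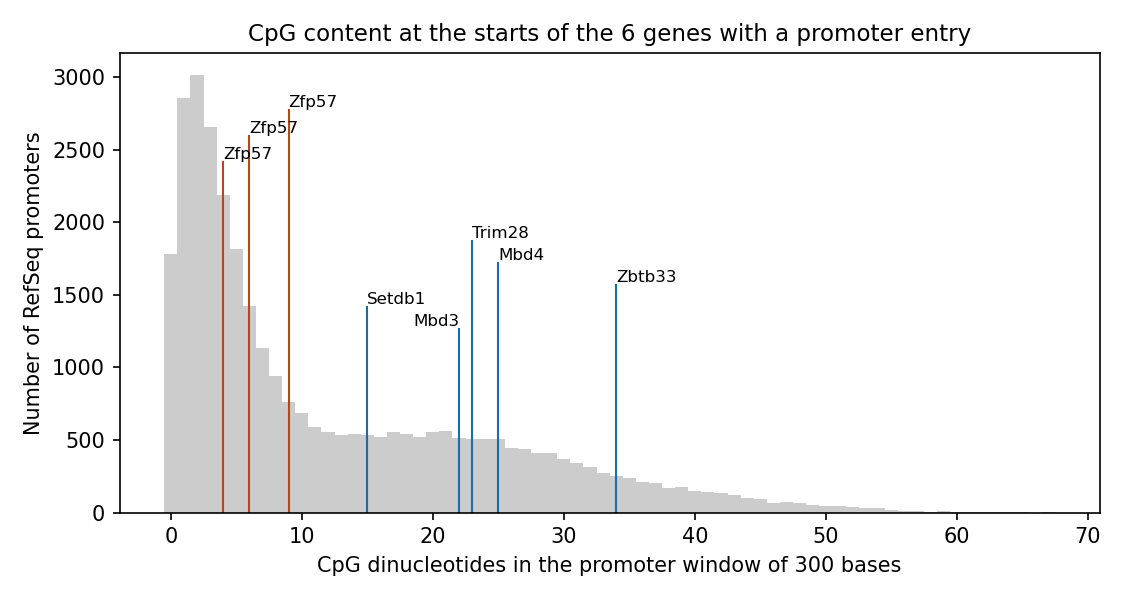
Number of RefSeq mouse promoters (y axis) by the count of CpG dinucleotides in a 300-base window around the start (x axis); lines mark the windows of 6 of the 8 genes, and their height has no meaning. The 3 Zfp57 starts, at 4, 6 and 9, lie near the median of 7, and the other 5 genes lie between 15 and 34.

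Among the 8 genes Trim28 was the most abundant in every library. It stood at 822 (WT_ES), 722 (DKO_ES), 173 (WT_NP) and 291 FPKM (DKO_NP), and ranked between positions 228 and 348 of all symbols. Zfp57 was second in both ES libraries with 171 (WT_ES) and 139 FPKM (DKO_ES), and had 13.8 (WT_NP) and 8.89 FPKM (DKO_NP) in day 6 cells. Mbd3 and Setdb1 came next in ES cells and followed Trim28 in both day 6 libraries. Mbd4, Mbd2, Mbd1 and Zbtb33 stayed below 15 FPKM throughout. Between the lowest and the highest library as deposited, Zfp57 spanned 19.3-fold, Trim28 4.76-fold and Zbtb33 1.34-fold.

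**Figure D2:**
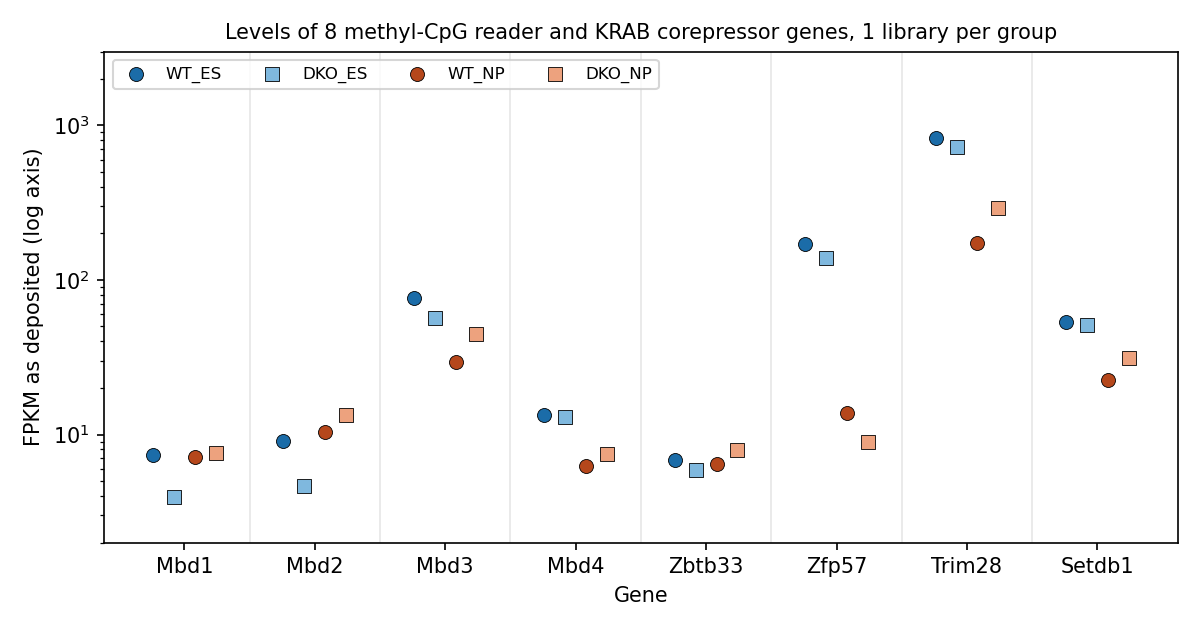
FPKM as deposited (y axis, log scale) of the 8 genes (x axis) in the 4 libraries, 1 point per library and no error bars because each group holds 1 library. Trim28 lies highest at 173 to 822 FPKM, and Zfp57 shows the widest spread between ES and day 6 libraries.

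Ranks within a library need no scaling between libraries, and they showed the same contrast. Among genes at or above 1 FPKM, Zfp57 lay at percentile 94.1 in WT_ES but 64.9 in WT_NP. In the knockout it lay at 93.0 in DKO_ES but 42.6 in DKO_NP. Trim28 stayed between percentiles 97.3 and 98.3. Mbd2 went the other way from Zfp57, at percentile 36.4 in WT_ES and 55.0 in WT_NP, and at 23.0 in DKO_ES and 54.7 in DKO_NP. Mbd1 lay at 31.8, 42.3, 20.1 and 37.8 in the order WT_ES, WT_NP, DKO_ES and DKO_NP. Setdb1 kept to 78.7 to 80.9 and Mbd3 to 82.5 to 86.7.

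**Figure D3:**
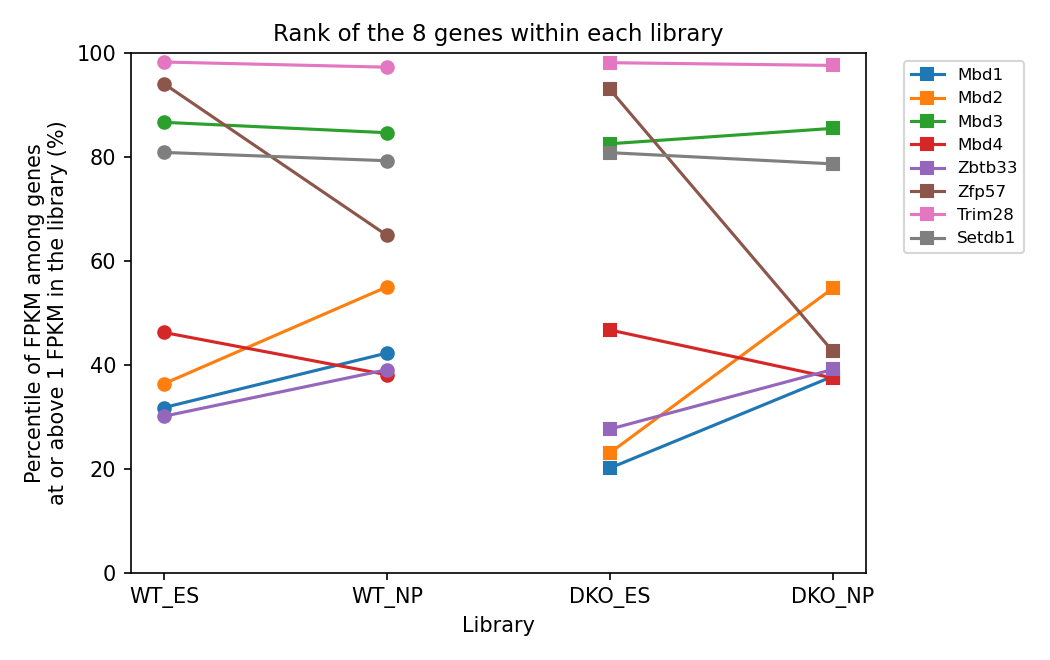
Percentile of each gene's FPKM (y axis, %) among genes at or above 1 FPKM in the same library (x axis); lines join ES cells and day 6 cells of one genotype. Zfp57 goes from 94.1 to 64.9 in wild type and from 93.0 to 42.6 in the knockout, while Mbd2 goes from 36.4 to 55.0 and from 23.0 to 54.7.

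After differentiation the KRAB complex genes were lower in day 6 cells of both genotypes, most of all Zfp57, with Setdb1 in the knockout the exception when libraries were scaled to equal FPKM totals. In wild type Zfp57 was 6.31-fold lower in WT_NP than in WT_ES (interval 6.00 to 6.63), from 171 to 13.8 FPKM. In the knockout it was 11.3-fold lower (10.5 to 12.2), from 139 to 8.89 FPKM. Both day 6 values lay below both ES values, as deposited and under each scaling used. In a bulk culture, fewer cells with a transcript and less transcript per cell cannot be told apart. Trim28 was 2.42-fold lower in wild type (2.38 to 2.46) and 1.80-fold lower in the knockout (1.77 to 1.83), and its ES values also lay above both day 6 values as deposited and after median scaling. Setdb1 stood at 53.4 (WT_ES), 22.6 (WT_NP), 51.0 (DKO_ES) and 31.4 FPKM (DKO_NP). After scaling it was 1.20-fold lower in WT_NP (1.16 to 1.25) and 1.18-fold lower in DKO_NP (1.13 to 1.22) than in ES cells.

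The methyl-CpG-binding genes did not share one direction. Mbd2 was higher in day 6 cells, by 2.23-fold in wild type (1.99 to 2.50) and 3.95-fold in the knockout (3.41 to 4.58). Its FPKM was 9.12 (WT_ES), 10.3 (WT_NP), 4.65 (DKO_ES) and 13.3 (DKO_NP), so as deposited the wild-type values were close. Mbd1 stood at 7.39, 7.15, 3.93 and 7.56 FPKM in the same order. Its scaled level was 1.90-fold higher in WT_NP (1.74 to 2.08), but 1.03-fold lower as deposited, and it was 2.65-fold higher in DKO_NP (2.36 to 2.97). Zbtb33, at 6.82, 6.48, 5.89 and 7.89 FPKM, was 1.87-fold higher in WT_NP (1.68 to 2.08), but 1.05-fold lower as deposited, and 1.85-fold higher in DKO_NP (1.65 to 2.07). The order of Mbd1 and Zbtb33 in wild type therefore rests on the scaling. Mbd3 stood at 76.2 (WT_ES), 29.6 (WT_NP), 57.0 (DKO_ES) and 44.6 FPKM (DKO_NP). It was 1.31-fold lower in WT_NP (1.23 to 1.39), and 1.08-fold higher in DKO_NP (1.01 to 1.15), although as deposited DKO_NP was 1.28-fold lower. Mbd4, at 13.4, 6.29, 13.1 and 7.45 FPKM, was 1.08-fold lower in WT_NP (0.994 to 1.18), an interval that includes no difference. It was 1.27-fold lower in DKO_NP (1.16 to 1.39), with the opposite direction when libraries were scaled to equal FPKM totals.

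For counts over all genes, log2((scaled FPKM + 1)/(scaled FPKM + 1)) was taken for genes with 1 FPKM or more on either side of the pair, and a size of 1 or more (2-fold) was called. In WT_NP against WT_ES, 1 of the 8 members was called higher (Mbd2), beside 16.2% of all 14086 genes. Trim28 and Zfp57 were called lower, beside 11.3% of all genes. Both as deposited and with equal FPKM totals, 0 members were called higher and 4 lower (Mbd3, Zfp57, Trim28 and Setdb1). Over all 14086 genes, 901 were higher and 5876 lower as deposited, and 964 and 5011 with equal totals. In DKO_NP against DKO_ES, Mbd1 and Mbd2 were called higher, beside 11.8% of 14050 genes, and Zfp57 was called lower, beside 11.2%. As deposited 1 was called higher (Mbd2) and 2 lower (Zfp57 and Trim28), and with equal totals 3 were higher (Mbd1, Mbd2 and Zbtb33) and 1 lower (Zfp57). Over all 14050 genes, 1102 were higher and 3067 lower as deposited, and 3756 and 789 with equal totals. The median log2 ratio of the 8 was -0.18 in wild type and -0.06 in the knockout, where the median over all genes was 0.01 and -0.03. Members called in the 2 comparisons number 3 of 8 each, and these shares are too coarse to set apart from the background. Zfp57, at log2 ratios of -2.60 and -3.37, lay at percentiles 1.48 and 0.626 of all genes. Scaling took out a shift of the median gene of -0.82 (wild type) and -0.43 (knockout) in the deposited log2 ratios.

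**Figure D4:**
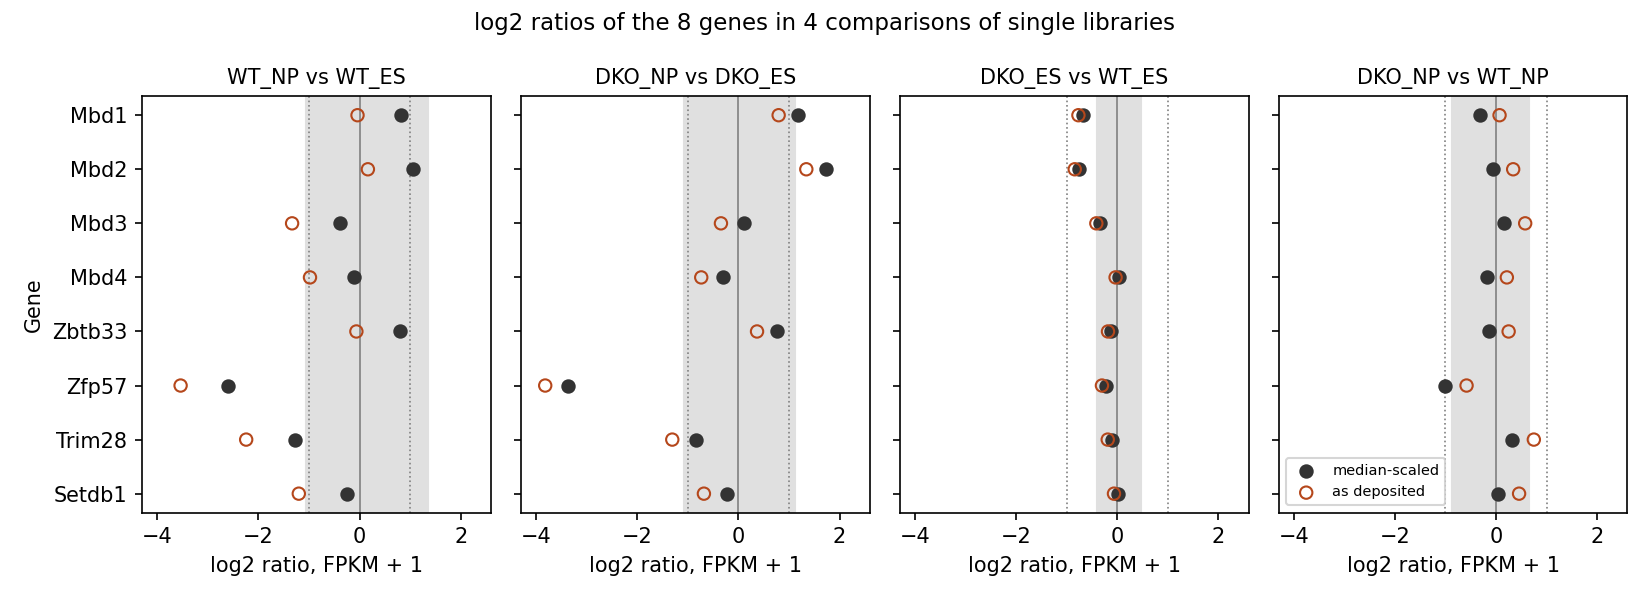
log2 ratio of FPKM + 1 (x axis) of the 8 genes (y axis) in 4 comparisons of single libraries, after median scaling (filled) and as deposited (open); grey bands span the 10th to 90th percentile of all genes and dotted lines mark 2-fold. Zfp57 lies left of the band in both differentiation panels at -2.60 and -3.37, and Mbd1 and Mbd2 lie left of it in DKO_ES vs WT_ES at -0.67 and -0.75; for Mbd1 and Zbtb33 in WT_NP vs WT_ES the open points fall on the other side of 0, as they do for Mbd3 in DKO_NP vs DKO_ES, Mbd4 and Setdb1 in DKO_ES vs WT_ES and Mbd1, Mbd2, Mbd4 and Zbtb33 in DKO_NP vs WT_NP.

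Without Dnmt3a and Dnmt3b, ES cells had lower Mbd1 and Mbd2, while most of the KRAB complex stood close to wild type. Mbd1 was 1.78-fold lower in DKO_ES than in WT_ES (1.57 to 2.02), at about 393 reads against 679. Mbd2 was 1.86-fold lower (1.57 to 2.20), at about 223 reads against 401. DKO_ES was the lowest of the 4 libraries for both genes, as deposited and after median scaling. Their log2 ratios of -0.67 and -0.75 lay at percentiles 3.12 and 2.40 of 13596 genes, and neither reached the 2-fold limit. None of the 8 was called in either direction, beside 2.56% of all genes called higher and 1.15% called lower. Both genes lie on chromosome 18, whose 310 genes had a median log2 ratio of 0.02, against 0.01 over all genes. This median was taken after the shared chromosome was seen. A median over a whole chromosome cannot show a change of a part of it, and whether their position matters was not tested. Mbd3 was 1.27-fold lower (1.19 to 1.35) and Zfp57 1.17-fold lower (1.14 to 1.21), and Trim28 was 1.08-fold lower (1.07 to 1.10). Zbtb33 was 1.10-fold lower with an interval from 0.964 to 1.25. Setdb1 was 1.01-fold higher (0.969 to 1.05) and Mbd4 1.03-fold higher (0.941 to 1.12), and both stood slightly lower as deposited and when scaled to equal totals.

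In day 6 cells Zfp57 had the largest genotype ratio of the 8 genes after median scaling. Zfp57 was 2.10-fold lower in DKO_NP than in WT_NP (1.94 to 2.28). Its log2 ratio of -1.0001 was just past the limit, it was 1.55-fold lower as deposited, and it stood at a log2 ratio of 0.062 when scaled to equal totals. Trim28 was 1.24-fold higher in DKO_NP (1.22 to 1.26), at 291 against 173 FPKM as deposited, and Mbd3 was 1.11-fold higher (1.05 to 1.18). Both were also higher as deposited and with equal totals, but there the median over all genes was 0.39 and 1.03, so this is no check. Setdb1 was 1.03-fold higher (0.988 to 1.07). Mbd1 was 1.28-fold lower (1.19 to 1.38), Mbd4 1.14-fold lower (1.05 to 1.24), Zbtb33 1.11-fold lower (1.02 to 1.21) and Mbd2 1.05-fold lower (0.964 to 1.14) after median scaling, and all 4 were higher as deposited and when scaled to equal totals. None of the 8 was called higher, beside 4.76% of 13601 genes, and 1, Zfp57, was called lower, beside 7.99%.

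Other lineages also differed between the day 6 libraries. The summed FPKM of 7 endoderm markers was 124 in WT_NP and 28.6 in DKO_NP, and that of 6 mesoderm and blood markers was 797 and 81.0. After median scaling 5 of the 7 and 6 of the 6 were at least 2-fold lower in DKO_NP, beside 7.99% of all genes. The endoderm genes Sox17 and Afp were not. As deposited they were higher in DKO_NP, at 5.82 against 4.44 FPKM and 6.79 against 6.18. Globin genes gave most of the day 6 sums of mesoderm and blood. In ES cells the same sums were 3.62 in WT_ES and 1.62 in DKO_ES for endoderm, and 1.13 and 1.80 for mesoderm and blood. The endoderm marker Ttr and the globin genes Hba-x and Hbb-y were listed at 0 in both ES libraries, and Hbb-bh1 and the radial glia gene Fabp7 in WT_ES. No marker was listed at 0 in a day 6 library. Of 6 fibroblast markers, 4 were at least 2-fold lower in DKO_ES than in WT_ES after median scaling, beside 1.15% of all genes. Thy1 went the other way, with a log2 ratio of 0.11 that fell below 0 when scaled to equal totals. Summed over the 6, the knockout had 21.4 FPKM against 78.7 for wild type as ES cells. At day 6 it had 39.2 against 67.3. The part of these cell types in the values of the 8 genes was not tested.

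The differentiation ratios of the 2 genotypes were also set against each other. The difference of the log2 ratios, knockout minus wild type, was 0.68 for Mbd2, 0.49 for Mbd3, 0.43 for Trim28 and 0.35 for Mbd1 after median scaling. These values stayed above 0 under the other 2 scalings, but both raise the difference of a typical gene, so this is no check. The difference was -0.77 for Zfp57, which turned to 0.61 when scaled to equal totals. Setdb1, at 0.03, and Zbtb33, at -0.02, had the smallest differences, and Mbd4 stood at -0.21. Zbtb33 and Mbd4 were above 0 under the other 2 scalings. Over 13423 genes the 10th and 90th percentiles of this difference were -0.80 and 0.61. None of the 8 passed a difference of 1 after median scaling, beside 3.80% of genes that were higher by that much and 7.22% that were lower. As deposited 1 did (Mbd2, at 1.18), and with equal totals 7 did, at 1.10 to 2.02, all members but Zfp57. The shares over all genes were counted after median scaling only. With equal totals the median log2 ratio over all genes was -0.70 in wild type and 0.53 in the knockout, and as deposited -0.82 and -0.43. Both of these scalings thus raise the difference of a typical gene, and these counts are not particular to the members.

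Ratios of 2 genes within one library do not depend on the scaling between libraries. Mbd3 exceeded its NuRD alternative Mbd2 by 8.36-fold in WT_ES (7.51 to 9.33) and 12.2-fold in DKO_ES (10.6 to 14.1). In day 6 cells the ratio was 2.87 in WT_NP (2.67 to 3.08) and 3.35 in DKO_NP (3.11 to 3.60). The 2 day 6 ratios lay below both ES ratios by more than counting error. Of the summed FPKM of Mbd1 to Mbd4, Mbd3 took 71.8% (WT_ES), 72.5% (DKO_ES), 55.5% (WT_NP) and 61.2% (DKO_NP), and Mbd2 took 8.59%, 5.92%, 19.4% and 18.3%.

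Trim28 exceeded Zfp57 by 4.80-fold in WT_ES (4.69 to 4.91) and 5.20-fold in DKO_ES (5.08 to 5.33). The ratio was 12.5 in WT_NP (11.9 to 13.1) and 32.7 in DKO_NP (30.6 to 35.1), so the order of the 4 libraries ran from WT_ES through DKO_ES and WT_NP to DKO_NP. The day 6 genotypes were thus set apart at this pair without any scaling. Trim28 exceeded Setdb1 by 15.4-fold in WT_ES (15.0 to 15.9), 14.1-fold in DKO_ES (13.7 to 14.6), 7.64-fold in WT_NP (7.42 to 7.87) and 9.26-fold in DKO_NP (8.996 to 9.536). The corepressor was thus less in excess of the methyltransferase in day 6 cells of either genotype. How transcript ratios relate to protein was not measured.

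**Figure D5:**
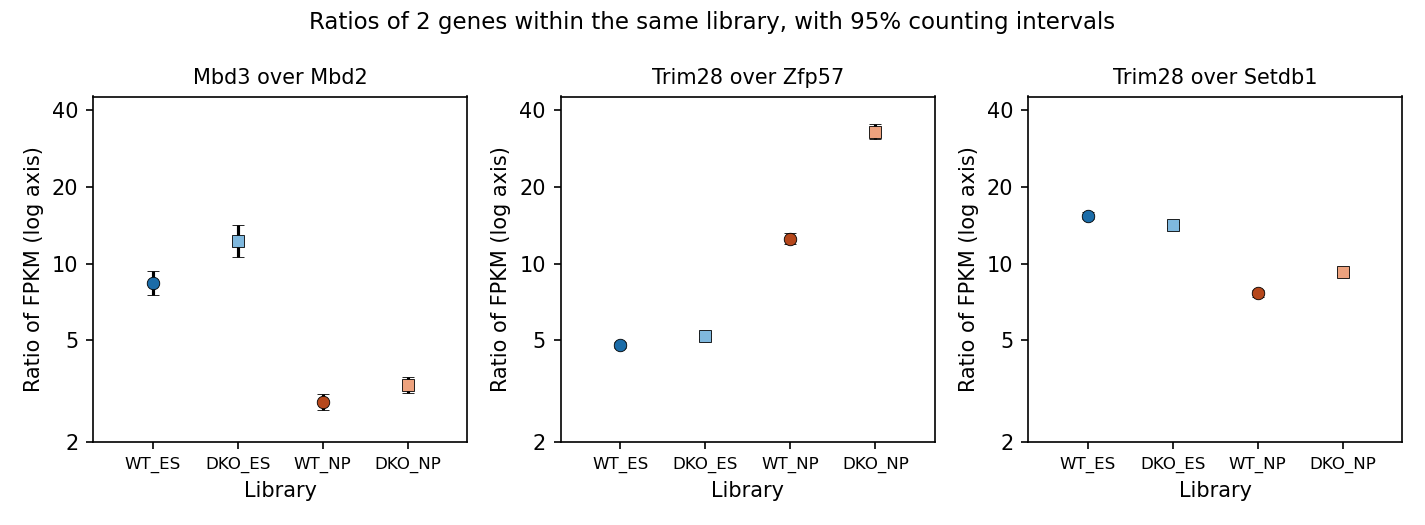
Ratio of the FPKM of 2 genes within a library (y axis, log scale) in the 4 libraries (x axis), with 95% counting intervals as bars. Mbd3 over Mbd2 is 8.36 and 12.2 in ES cells against 2.87 and 3.35 in day 6 cells, and Trim28 over Zfp57 goes from 4.80 in WT_ES to 32.7 in DKO_NP.

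Among the other NuRD subunits Chd3 was higher in day 6 cells of both genotypes, as Mbd2 was. Of 12, 1 was at least 2-fold higher and 2 were lower in WT_NP than in WT_ES, beside 16.2% and 11.3% of all genes. Their median log2 ratio was -0.15. As deposited 1 was higher and 7 were lower, and with equal totals 1 and 6. Over all 14086 genes, 901 were higher and 5876 lower as deposited, and 964 and 5011 with equal totals. After median scaling 1 was higher and 1 lower in DKO_NP than in DKO_ES, beside 11.8% and 11.2% of all genes. The median of 0.04 was -0.42 as deposited, against -0.43 over all genes. Chd3, a remodelling ATPase of the complex, stood at 4.98 (WT_ES), 12.4 (WT_NP), 7.84 (DKO_ES) and 16.8 FPKM (DKO_NP). Its relative Chd5 was lower in both, at 4.60 FPKM in WT_ES and 0.503 in WT_NP, and at 3.44 in DKO_ES and 0.294 in DKO_NP. Mta3, a scaffold subunit, had log2 ratios of -1.19 in wild type and -0.67 in the knockout. After median scaling no NuRD subunit differed 2-fold between genotypes in ES cells, where the median was -0.14, or among the 11 that reached 1 FPKM in day 6 cells, where it was 0.06. Shares of all genes were 2.56% higher and 1.15% lower in DKO_ES, and 4.76% and 7.99% in DKO_NP.

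Further genes from families of methyl-CpG readers numbered 7. Of them 4 were at least 2-fold higher and 1 lower in WT_NP than in WT_ES, beside 16.2% and 11.3% of all genes. Their median log2 ratio was 1.03, or 0.08 as deposited, and 0 were higher and 2 lower both as deposited and with equal totals. Zbtb4, a relative of Kaiso, had a log2 ratio of 1.38 and Mbd5, whose protein has a domain of the same family, one of 1.17. Having such a domain does not by itself show that a protein binds methylated DNA. Zbtb38, another zinc finger reader of the Kaiso group, was the one lower, at 11.3 (WT_ES), 1.97 (WT_NP), 12.3 (DKO_ES) and 3.94 FPKM (DKO_NP). In DKO_NP against DKO_ES, 1 was higher and 1 lower with a median of 0.41, beside 11.8% and 11.2% of all genes. The lower one was again Zbtb38. None of the 7 differed 2-fold between genotypes in either cell type after median scaling. Over all genes, 2.56% were higher and 1.15% lower in DKO_ES, and 4.76% and 7.99% in DKO_NP. The medians of the 7 were -0.08 in ES cells and -0.32 in day 6 cells, the last being 0.07 as deposited.

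Among partners of TRIM28 and SETDB1, Morc3 was at least 2-fold lower in WT_NP than in WT_ES. The list of 16 genes holds the heterochromatin protein 1 genes, the SETDB1 cofactor Atf7ip, the HUSH complex and related factors. In WT_NP, 1 was at least 2-fold lower and none higher, beside 11.3% and 16.2% of all genes. The median log2 ratio was -0.43 and 2 lay above 0. As deposited 14 were lower by 2-fold with a median of -1.35, and with equal totals 12 with a median of -1.22. Over all 14086 genes, 5876 were lower as deposited with a median of -0.82, and 5011 with equal totals with a median of -0.70. In DKO_NP against DKO_ES, 2 were lower and none higher, beside 11.2% and 11.8% of all genes. Their median of -0.06 was 0.54 when scaled to equal totals, against 0.53 over all genes. Morc3, a chromatin ATPase, stood at 69.7 (WT_ES), 14.1 (WT_NP), 64.4 (DKO_ES) and 23.9 FPKM (DKO_NP). Fam208a, the TASOR subunit of HUSH, stood at 40.6, 10.2, 35.7 and 10.7 FPKM in the same order, and Atf7ip2, a relative of Atf7ip, at 16.7, 6.22, 18.6 and 4.12. All 3 were lower in day 6 cells of each genotype under each scaling used, though Morc3 was past 2-fold in wild type only and the other 2 in the knockout only, a difference that was not tested. None of the 16 differed 2-fold between genotypes after median scaling. Shares of all genes were 2.56% higher and 1.15% lower in DKO_ES, and 4.76% and 7.99% in DKO_NP. With equal totals, where the median over all genes in DKO_NP against WT_NP was 1.03, 12 of these partners, 9 NuRD subunits, 2 of the further reader-family genes and 12 KRAB zinc finger genes were higher by 2-fold. Of all 13601 genes, 7059 were. A further list of 6 held the H3K9 methyltransferase genes Setdb2, Suv39h1, Suv39h2, Ehmt1 and Ehmt2, and the histone methyltransferase gene Prdm9. Prdm9 lay near the 1 FPKM limit, at 0.761 in WT_ES and 1.43 in WT_NP. After median scaling none of the 6 was called in wild type. In the knockout 1, Suv39h1, was higher in DKO_NP than in DKO_ES, at 30.2 against 14.6 FPKM, beside 11.8% of all genes. After median scaling neither genotype comparison called any of the 6 that reached 1 FPKM, beside the shares of all genes given above. In DKO_NP against WT_NP 1 was higher as deposited and 4 with equal totals, beside 1382 and 7059 of 13601 genes.

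Among other KRAB zinc finger genes, Zfp819 and Zfp459 were lower and Zfp316 higher in day 6 cells of both genotypes. Of 59 chosen by symbol, 57 were found, and of the 49 at or above 1 FPKM in WT_NP or WT_ES, 5 were at least 2-fold higher in WT_NP and 3 lower, beside 16.2% and 11.3% of all genes. Their median log2 ratio was 0.14, or -0.58 as deposited, where 0 were higher and 12 lower, and with equal totals 0 and 10. In the knockout 2 of 51 were higher and 3 lower, beside 11.8% and 11.2% of all genes, with a median of -0.04 that was 0.46 when scaled to equal totals. Zfp819 had ratios of a size like those of Zfp57, at 13.8 (WT_ES), 0.416 (WT_NP), 14.6 (DKO_ES) and 1.20 FPKM (DKO_NP), with log2 ratios of -2.82 and -2.44. Zfp459 had log2 ratios of -1.32 and -2.08. Zfp316 was higher in both, at 1.44 and 1.15. After median scaling no gene of the list differed 2-fold between genotypes, among 50 in ES cells and 49 in day 6 cells. Over all genes, 2.56% were higher and 1.15% lower in DKO_ES, and 4.76% and 7.99% in DKO_NP. Zfp809, which in mouse recognises the primer binding site of a class of retroviruses, had 28.0 (WT_ES), 38.8 (DKO_ES), 7.98 (WT_NP) and 20.4 FPKM (DKO_NP). It was higher in the knockout of both cell types, with log2 ratios of 0.53 and 0.86, under each scaling used. In day 6 cells the alternative scalings raise the median gene, so there the kept sign is no check. Zfp90, Zfp810 and Zfp935 went the other way there, at -0.90, -0.90 and -0.87, but were above 0 with equal totals. Of the 49 genes 12 lay above 0 in DKO_NP against WT_NP. Their median was -0.19, but 0.15 as deposited and 0.71 with equal totals. Many genes of this family are near-identical, which makes their single values uncertain.

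Imprinted genes near control regions that ZFP57 binds were mostly higher in day 6 cells, where Zfp57 was lower. They were chosen with their values in these libraries known. Of 27 at or above 1 FPKM, 20 were at least 2-fold higher and 1 lower in WT_NP than in WT_ES. Over all genes these shares were 16.2% and 11.3%. The median log2 ratio of the 27 was 1.76. As deposited 12 were higher and 2 lower, beside 901 and 5876 of 14086 genes. In the knockout 15 of 26 were higher and 2 lower, beside 11.8% and 11.2% of all genes, with a median of 1.74. Between genotypes, 1 of 22 was higher and 5 were lower in DKO_ES, beside 2.56% and 1.15% of all genes. In DKO_NP 3 of 28 were higher and 9 lower, beside 4.76% and 7.99%. As deposited 3 were higher and 6 lower, beside 1382 and 531 of 13601 genes. With equal totals 10 were higher and 5 lower, beside 7059 and 267. The median of the 28 was -0.38, -0.01 as deposited and 0.61 with equal totals, so the excess of lower genes rests on the scaling. Among the imprinted genes the RNAs Meg3 and Rian of one cluster had the largest genotype log2 ratios. These were -3.75 and -4.04 in ES cells and -6.95 and -6.10 in day 6 cells. Whether these values follow Zfp57 was not tested.

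For 4 members the profile over the 4 libraries spanned a log2 difference of 1 or more, and the 3 genes closest to each were found by Euclidean distance of centred log2(scaled FPKM + 1) over these 4 values. With 4 points, close profiles are easy to find. Zfp57 was closest to Zscan10, a zinc finger factor of ES cells, at a distance of 0.20, followed by 1700019D03Rik at 0.24 and Epb4.9 at 0.26. Zscan10 stood at 59.9 (WT_ES), 4.90 (WT_NP), 48.3 (DKO_ES) and 3.20 FPKM (DKO_NP). Trim28 was closest to Zbtb8os at 0.04, Ppm1m and Mgmt, the last a repair enzyme of alkylated guanine, both at 0.06. Mbd2 was closest to Kank1 at 0.10, the gap junction gene Gja1 at 0.12 and Phldb1 at 0.18. Mbd1 was closest to Nt5c3l at 0.08, Ddx19a at 0.11 and Rnf145 at 0.12. Ddx19a, for example, was lowest in DKO_ES at 13.2 FPKM, against 23.3 in WT_ES, 19.3 in WT_NP and 21.6 in DKO_NP.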

How the data were processed

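The authors deposited FPKM values for 4 libraries in 1 table, from single-end reads of 50 cycles of rRNA-depleted RNA (TruSeq, 5 µg, 15 cycles of PCR, per the labels' protocols). Bowtie, TopHat and mouse build mm9 were used, per the submitters' processing notes. Their versions, the program that computed FPKM, its annotation and its treatment of reads with several matches were not given in the sources used here. No label says whether the libraries kept strand, so opposite-strand overlaps cannot be resolved. Of the table's rows, 18 blank ones were left out, and 0 value columns were unmapped. A listed 0 may mark a failed estimate: Lars2 is 0 in WT_ES but 10341 FPKM in DKO_ES.

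Median scaling used 11334 genes that reached 1 FPKM in each library, with factors of 1.32, 0.671, 1.25 and 0.908 for WT_ES, WT_NP, DKO_ES and DKO_NP. Called log2 ratios used a pseudocount of 1 FPKM, which understates differences of low genes; folds of single genes used none. Depth was read from the steps of low values: 1513 of 2621 genes under 1 FPKM (57.7%) were whole reads within 0.02 in all 4 libraries. GENCODE M21 (GRCm38) exon lengths then gave approximate reads, which are rough. The least covered member had about 223 reads, and 3 reads corresponded to 0.110 FPKM or less. Sequences are RefSeq's, of GRCm38.p6, not mm9. The members and lists were chosen with earlier results of these data known. Named list genes are those with the largest log2 ratios, at most 4 per list and comparison. Each comparison sets 1 library against 1, so no test was run. Alternatives were values as deposited, equal FPKM totals, a pseudocount of 0.1, no filter or one of 5 FPKM, and a fold limit of 1.5. Python 3.11.15, numpy 2.4.6, pandas 2.3.3, scipy 1.17.1 and matplotlib 3.10.9 were used, and the scaling, depth and calls were tested on simulated data.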

Additional observations from a re-analysis of the deposited data

Results flagged for a closer look

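Mbd3 and Trim28 had genotype differences of opposite direction in the 2 cell types, each beyond counting error. Mbd3 had a log2 ratio of -0.34 in DKO_ES against WT_ES and 0.15 in DKO_NP against WT_NP. Trim28 had -0.11 and 0.31. Both pairs kept their signs under the other 2 scalings, but those move the median gene the same way. Its log2 ratio went from 0.01 to -0.06 as deposited and -0.27 with equal totals in ES cells. In day 6 cells it went from 0.01 to 0.39 and 1.03. The kept signs are therefore no check. Mbd3 also differed in direction between the genotypes during differentiation, at -0.38 in wild type and 0.11 in the knockout, where the second value was -0.35 as deposited. These differences were not tested, since each rests on single libraries.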

How the results depend on the processing

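Another scaling or pseudocount gave 120 values for single members, of which 42 moved within the counting interval and 77 beyond it; filters and the fold limit cannot change such a value. Signs differed in 11 as deposited, in 12 with equal FPKM totals and in 0 with a pseudocount of 0.1. Zfp57 in DKO_NP against WT_NP turned from -1.0001 to 0.062 with equal totals. The 10 highest rows hold 54.6% to 64.9% of each total. Genes at least 2-fold apart numbered 3879 in WT_NP against WT_ES, but 6777 as deposited (901 higher, 5876 lower), 5975 with equal totals (964 higher, 5011 lower) and 7053 at a limit of 1.5-fold. For DKO_NP against DKO_ES they numbered 3226, and 6205 at 1.5-fold; the split of 1656 higher and 1570 lower was 1102 and 3067 as deposited and 3756 and 789 with equal totals. For DKO_ES against WT_ES they numbered 504, and 973 with a pseudocount of 0.1 and 1546 at 1.5-fold; 348 higher and 156 lower were 246 and 334 with equal totals. For DKO_NP against WT_NP they numbered 1735, and 7326 with equal totals (7059 higher, 267 lower), 979 with a filter of 5 FPKM and 3935 at 1.5-fold; 648 higher and 1087 lower were 1382 and 531 as deposited. As deposited, the higher share went from 2287 of 3879 to 901 of 6777 in the first comparison. Members at least 2-fold apart numbered 3, 3, 0 and 1 in the 4 comparisons in this order. At 1.5-fold they numbered 5 and 5 in the differentiation comparisons and 2 in ES cells. In ES cells 1 passed with equal totals, and in day 6 cells 0 passed as deposited and 3 with equal totals. The cause of these moves was not tested, apart from the limit and the filter, which change what can be counted. No replicate could be left out and no paired analysis was possible because each group holds 1 library.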

Other observations

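Some DNA repair genes that act with or beside MBD4 had larger differentiation ratios than Mbd4 itself. Over 8 of them the median log2 ratio of WT_NP against WT_ES was -0.48, or -1.34 as deposited. Msh6, a mismatch repair subunit, stood at 353 (WT_ES), 39.5 (WT_NP), 322 (DKO_ES) and 83.3 FPKM (DKO_NP). Its log2 ratio in wild type was -2.17, and that of Ung, the uracil glycosylase, was -1.13. In the knockout the log2 ratio of Msh6 was -1.48, and Smug1, another uracil glycosylase, was higher by 1.26. Tdg, which like Mbd4 encodes a thymine glycosylase, was the one called between genotypes in ES cells. It stood at 7.77 (WT_ES), 2.96 (DKO_ES), 2.56 (WT_NP) and 3.88 FPKM (DKO_NP), with a log2 ratio of -1.03 in DKO_ES that was below 0 under each scaling. The alternative scalings lower the median gene in that comparison, so the kept sign is no check.

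In GENCODE, exons of 3 members overlap genes on the opposite strand. These are Mbd4 with 264 shared bases of 5280, Zbtb33 with 474 of 5122, next to Tmem255a, and Setdb1 with 75 shared with Cers2 and 249 with a further model, of 6853. Reads of those neighbours cannot be told apart from theirs here.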
